A study of Mus musculus with 90 samples.

Results

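The serotonin receptor genes were read out of a whole-brain-region study as 1 family of 10 genes: Htr1a, Htr1b, Htr1d, Htr1f, Htr2a, Htr2c, Htr3a, Htr4, Htr5a and Htr7. They were found by their mouse Ensembl identifiers, and all 10 were present among the 37991 identifiers of the count table. All 10 passed the filter on low counts in every region, so each was tested everywhere. The residents were territory-holding C57BL/6J males, each housed with a C57BL/6J female that was taken out 3 h before the trial. For 5 min a wire cage was placed in the home cage, holding an unfamiliar BALB/cJ male (intruder) or a paper cup (control). Residents were killed 30, 60 or 120 min later, and amygdala, frontal cortex and hypothalamus were dissected. The 90 libraries came from 32 animals, of which 28 gave all 3 regions. Each combination of region, time and condition held 5 animals, except 3 for hypothalamus of 30 min controls and 6 for both frontal cortex groups at 120 min. No genotype was altered, and the labels give no age. The series' own text says that RNA samples were pooled to make libraries without saying which; each library carries 1 animal's label, and p-values measure the spread between these libraries.

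Serotonin is released widely in the forebrain by neurons whose cell bodies lie in the raphe nuclei of the brainstem, so its receptors, and not its synthesis, set what a forebrain region can sense. The receptors of the Htr1 and Htr5 families couple to inhibitory G proteins, Htr2 receptors to Gq and phospholipase C, and Htr4 and Htr7 to Gs and cyclic AMP. Htr3a encodes a subunit of the only ligand-gated ion channel of the family. Serotonergic signalling in frontal cortex, amygdala and hypothalamus is a long-studied part of the neurobiology of aggression, and agonists at Htr1a and Htr1b receptors are known for lowering aggressive behaviour of male mice.

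Each library held between 38.6 and 58.86 M reads assigned to genes (median 49.01 M). Levels are given as CPM, counts scaled to a common library total, on TMM-scaled library sizes (trimmed mean of M-values), and per length as RPKM, which also divides by the length of merged exons. The dissections carried the markers of their labels only in part. Sim1, a hypothalamic transcription factor, had a median of 17.9 CPM in hypothalamus, 8.45 in amygdala and 0 in frontal cortex. Rspo2, a basolateral amygdala marker, was higher in frontal cortex (median 15.1 CPM) than in amygdala (6.08 CPM), so the amygdala label was not carried by that gene. The 5 amygdala markers together did follow the label, with a median score, the mean of log2(CPM + 0.5), of 4.82 in amygdala, above 4.05 in frontal cortex and 3.58 in hypothalamus. Markers of striatum, which lies near both dissections, varied widely: Adora2a, the adenosine receptor of indirect-pathway striatal neurons, ran from 2.96 to 176 CPM across amygdala libraries and from 2.33 to 86.1 CPM across frontal cortex libraries. Of 3 raphe markers, Slc6a4 and Fev were near 0 throughout (highest library 0.281 and 0.219 CPM), and Tph2 was low (highest library 2.87 CPM). In bulk tissue, fewer cells of a type and less RNA per cell cannot be told apart.

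The promoters of 3 members on which the results turn are shown first, as the 250 bases before the start of the gene, 5′ to 3′ on the gene's strand (RefSeq sequence, build GRCm38.p6). RefSeq promoters were matched for 8 of the 10 members, in 9 windows; Htr3a and Htr4 had none. Htr1b and Htr1d, both inhibitory receptors of axon terminals, tracked striatal markers across the libraries of amygdala and of frontal cortex. Htr2a was a member whose frontal cortex level in controls fell and rose with time. The windows are chr9:81633833-81634082 on the minus strand for Htr1b, chr4:136423274-136423523 and chr4:136424362-136424611 on the plus strand for 2 starts of Htr1d, and chr14:74640624-74640873 on the plus strand for Htr2a. Capitals mark GGGCGG, a GC box, or its reverse complement CCGCCC.
Htr1b: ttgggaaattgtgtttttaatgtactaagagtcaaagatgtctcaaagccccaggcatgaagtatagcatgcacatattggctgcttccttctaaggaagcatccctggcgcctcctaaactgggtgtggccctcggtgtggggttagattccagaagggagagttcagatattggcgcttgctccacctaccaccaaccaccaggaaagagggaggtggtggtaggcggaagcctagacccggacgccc
Htr1d, first start: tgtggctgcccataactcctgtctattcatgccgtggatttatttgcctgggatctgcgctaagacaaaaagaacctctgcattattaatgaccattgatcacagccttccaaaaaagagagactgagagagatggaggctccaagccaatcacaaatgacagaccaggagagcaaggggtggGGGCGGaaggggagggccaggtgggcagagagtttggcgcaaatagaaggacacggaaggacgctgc
Htr1d, second start: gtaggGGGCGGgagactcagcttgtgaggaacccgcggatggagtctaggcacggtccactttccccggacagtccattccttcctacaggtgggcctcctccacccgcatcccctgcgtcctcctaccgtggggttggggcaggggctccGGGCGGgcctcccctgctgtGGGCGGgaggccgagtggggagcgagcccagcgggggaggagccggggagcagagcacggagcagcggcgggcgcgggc
Htr2a: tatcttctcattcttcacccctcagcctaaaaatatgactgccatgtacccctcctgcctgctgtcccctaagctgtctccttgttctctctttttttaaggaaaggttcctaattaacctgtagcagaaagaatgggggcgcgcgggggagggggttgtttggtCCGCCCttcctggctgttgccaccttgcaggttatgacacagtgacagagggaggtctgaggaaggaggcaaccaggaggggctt

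The letters of a GC box occurred once before the first start of Htr1d, 3 times before the second, once before Htr2a and in no place before Htr1b. Windows of this length held them in 32.7% of 32851 mouse promoters. The half-site of a cyclic AMP response element (TGACG or CGTCA, 17.8% of promoters) and the TATA box letters (TATAAA or TTTATA, 12.4%) were in none of these 4 windows. GC content was 52.4% for Htr1b, 51.6% and 72.4% for Htr1d, and 52.8% for Htr2a, beside a median of 52.4% over all promoters. A match of letters is a description of the sequence and not a binding site.

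Compared per length, Htr2c was the most abundant member in amygdala and hypothalamus and Htr5a in frontal cortex. In amygdala, Htr2c reached 16.8 ± 1.36 RPKM (SD, n = 30), above Htr7 at 5.56 ± 0.458 RPKM in 30 of 30 libraries. Below these came Htr1a, Htr3a, Htr5a, Htr2a, Htr1d, Htr4, Htr1b and Htr1f, the last at 0.875 RPKM. Neighbours in that order differed by more than their summed SD at only 3 of 9 steps: Htr2c to Htr7, Htr1a to Htr3a and Htr5a to Htr2a. In frontal cortex, Htr5a led with 5.08 ± 0.491 RPKM (SD, n = 32), followed by Htr1a (4.01), Htr2c (3.54), Htr7 (3.23), Htr2a (3.02) and Htr3a (2.57). A gap wider than the summed SD separated Htr5a from Htr1a, and another separated Htr3a from Htr1f, Htr1d, Htr1b and Htr4, which all lay below 1 RPKM. In hypothalamus, Htr2c (10.4 ± 1.73 RPKM, SD, n = 28) and Htr7 (8.66 ± 0.773 RPKM) led and lay within their summed SD of each other. Htr1a, Htr5a, Htr2a, Htr1b, Htr3a, Htr4 and Htr1d followed, and Htr1f was lowest at 0.261 RPKM.

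**Figure D1:**
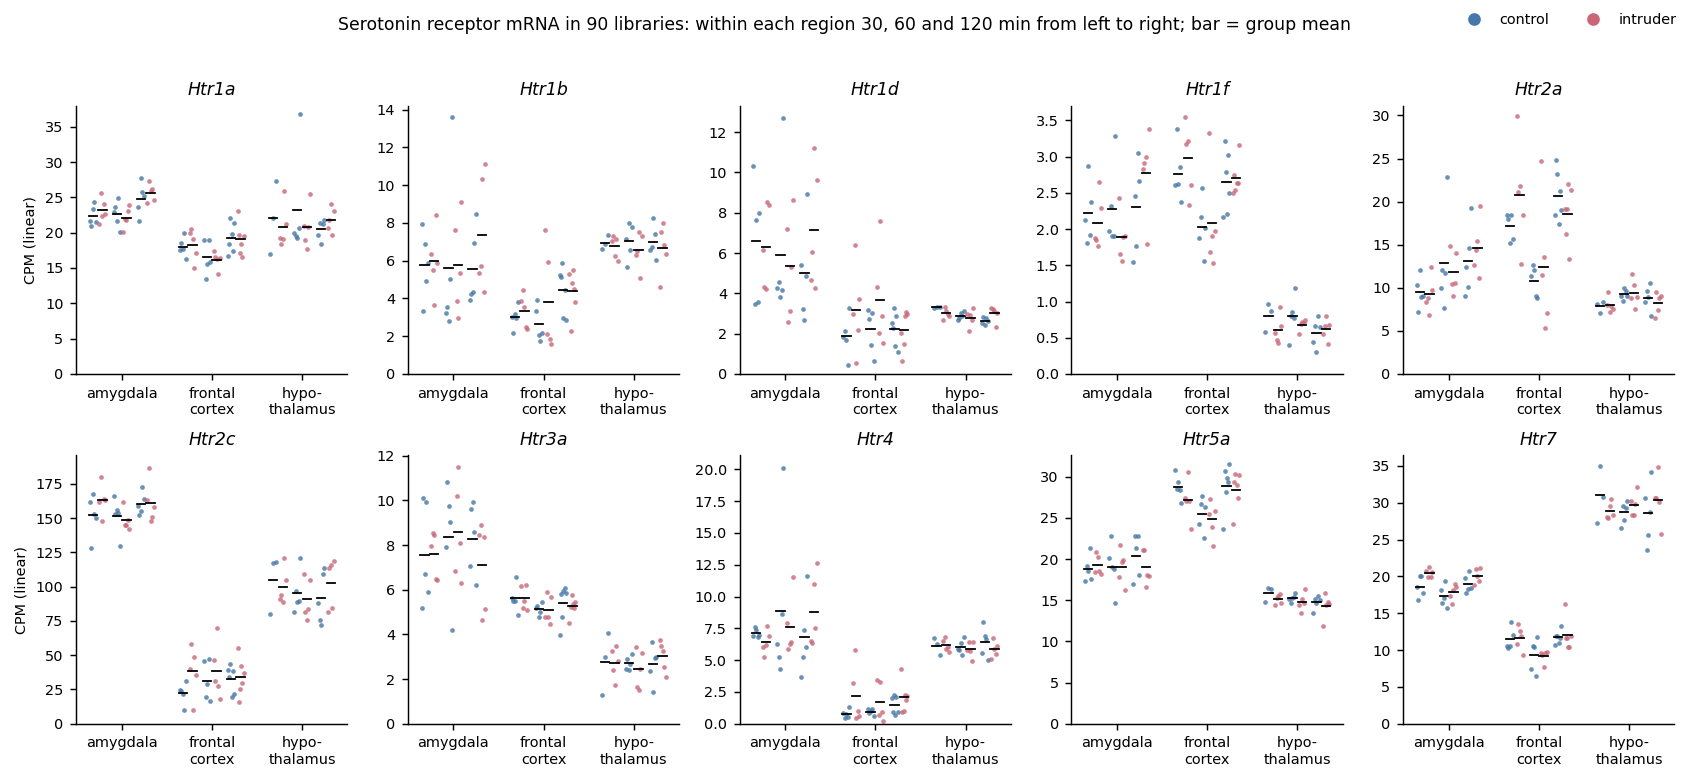
CPM on a linear axis in each of the 90 libraries for the 10 receptor genes, grouped by region and, within a region, by 30, 60 and 120 min; points are libraries, colours are conditions and bars are group means. Htr2c lies between 128 and 187 CPM in amygdala, with frontal cortex between 10.04 and 69.9 CPM and hypothalamus between 72.4 and 121 CPM, while control and intruder points overlap in every pair of groups.

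The largest differences of the family were between regions. Regions were compared within animals (edgeR quasi-likelihood F test with the animal as block, mean over the 6 combinations of time and condition, Benjamini-Hochberg adjustment over 18337 genes). Between frontal cortex and amygdala 10 of 10 members were called (3 higher and 7 lower in frontal cortex), where 77% of all genes were. Between frontal cortex and hypothalamus it was 9 of 10, with 87.5% of all genes called, and between amygdala and hypothalamus 8 of 10, with 80.5%. The shares of members called lie near those of all genes, and a call by itself says little here. The median log2 difference of the members was -0.65 for frontal cortex minus amygdala, -0.28 for frontal cortex minus hypothalamus and 0.39 for amygdala minus hypothalamus, beside -0.02, -0.02 and 0.01 over all genes. Libraries of 2 regions did not overlap in CPM for 1 of 10 members between frontal cortex and amygdala (6.33% of all genes), 4 of 10 between frontal cortex and hypothalamus (27.3%) and 4 of 10 between amygdala and hypothalamus (14.8%). Without the library of the amygdala 60 min control replicate 6, whose striatal score stood above its group, the counts were 10, 9 and 9. In 4 single combinations of time and condition the count was lower by over 1.5 times: for amygdala minus hypothalamus 3 in 30 min controls (50% of all genes) and 5 in 60 min intruder animals (59.6%), and for frontal cortex minus amygdala 6 in intruder animals at 60 min (60.2%) and 6 at 120 min (52.3%).

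Of the Gq-coupled receptors, Htr2c was lowest and Htr2a highest in frontal cortex, and both were higher in amygdala than in hypothalamus. Htr2c, a receptor known for restraining food intake and for being edited at the RNA level, had a lowest, median and highest library of 128, 156 and 187 CPM in amygdala, 72.4, 92.6 and 121 CPM in hypothalamus and 10.04, 31.1 and 69.9 CPM in frontal cortex. No library of one region reached the range of another. The log2 difference of Htr2c was -2.33 (SE 0.118) for frontal cortex minus amygdala, a 5.02-fold lower level, and -1.64 (SE 0.119) for frontal cortex minus hypothalamus. Htr2a, the cortical receptor on which classical hallucinogens act, had medians of 18.2 CPM in frontal cortex, 10.8 in amygdala and 8.84 in hypothalamus, with overlapping ranges. It was higher in frontal cortex than in amygdala by 0.48 log2 (SE 0.093), in 25 of 30 animals, and than in hypothalamus by 0.90 (SE 0.097). The order with amygdala did not hold at 60 min, where the log2 difference was -0.20 in controls and -0.05 in intruder animals; at the other times it ran up to 1.16. The difference over hypothalamus was also small at 60 min, 0.23 in controls and 0.27 in intruder animals (edgeR adjusted p = 0.372 and 0.295).

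Both Gs-coupled members, Htr4 and Htr7, were lowest in frontal cortex. Htr4 had a lowest, median and highest library of 3.68, 6.85 and 20.1 CPM in amygdala, 4.96, 5.98 and 7.98 CPM in hypothalamus and 0.191, 0.988 and 5.82 CPM in frontal cortex. The frontal cortex libraries of Htr4 thus spread over the widest relative range of any member, with a coefficient of variation of 82.5%. Its log2 difference was -2.48 (SE 0.188) for frontal cortex minus amygdala and -2.19 (SE 0.192) for frontal cortex minus hypothalamus, with the same sign in all 6 combinations of time and condition. Amygdala and hypothalamus were not told apart for Htr4 (0.29, 95% interval -0.06 to 0.63, adjusted p = 0.121). Htr7, which is known for its part in circadian timing, was ordered hypothalamus, amygdala, frontal cortex, with medians of 29.6, 18.9 and 10.8 CPM. Every animal followed that order: amygdala exceeded frontal cortex in 30 of 30 animals, and hypothalamus exceeded amygdala in 28 of 28. The log2 difference for frontal cortex minus hypothalamus was -1.45 (SE 0.042), a 2.73-fold lower level in frontal cortex.

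The inhibitory receptors divided by region. Htr5a varied little between libraries (coefficient of variation 9.66% for frontal cortex and 6.46% for hypothalamus, the lowest of the members in each, and 10.7% for amygdala, where Htr2c, Htr7 and Htr1a varied less) and was highest in frontal cortex, with a median of 27.4 CPM against 18.9 in amygdala and 15.0 in hypothalamus; its log2 difference was 0.50 (SE 0.033) over amygdala and 0.85 (SE 0.034) over hypothalamus. Htr1f, the receptor that lasmiditan-type migraine drugs address, was lowest in hypothalamus, with medians of 2.59 CPM in frontal cortex and 2.05 in amygdala against 0.67 in hypothalamus; the fitted differences from hypothalamus were 3.75-fold and 3.33-fold. Between frontal cortex and amygdala, Htr1f differed by 0.17 log2 (SE 0.073, adjusted p = 0.0302), a call lost with limma voom (adjusted p = 0.0629) and without the animal block (0.0572). Htr1d was higher in amygdala (median 5.08 CPM) than in hypothalamus (2.96 CPM), in 28 of 28 animals, and than in frontal cortex (2.397 CPM), in 27 of 30. Its difference from hypothalamus was called in 3 of the 6 single combinations of time and condition, with the same sign in all 6. In amygdala Htr1d ran with the striatal marker score (r = 0.98, group means removed). The amygdala libraries lowest in that score (4.77 and 4.8) held 3.15 and 2.6 CPM, and the part of striatal tissue was not tested. Htr1b was lowest in frontal cortex (median 3.43 CPM, against 5.44 in amygdala and 6.84 in hypothalamus). Htr1b overlaps an annotated antisense gene, D430036J16Rik, and without a stated strand setting it is not known how reads of that overlap were counted. Htr1a, the receptor that on raphe neurons acts as an autoreceptor, differed least: 23.5 CPM in amygdala, 20.7 in hypothalamus and 17.6 in frontal cortex at the median. Its amygdala minus hypothalamus difference of 0.13 log2 (adjusted p = 0.0189) was not called under upper-quartile scaling (0.07, adjusted p = 0.163).

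Htr3a, the ion channel subunit that marks a class of cortical interneurons, was highest in amygdala. Its lowest, median and highest libraries were 4.21, 8.24 and 11.5 CPM in amygdala, 3.98, 5.41 and 6.55 in frontal cortex and 1.28, 2.84 and 4.04 in hypothalamus. Hypothalamus was lower than both other regions in 28 of 28 animals, by 1.53 log2 against amygdala (SE 0.103) and 0.98 against frontal cortex (SE 0.103).

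The intruder, the question of the study, was called for none of the receptors. At 30, 60 and 120 min in each region 0 of 10 members passed an adjusted p of 0.05 with edgeR, and the same held for DESeq2 and limma voom. The background was 0%, 0% and 0.538% of genes called in amygdala (0, 0 and 93 of 17277), 0% at all times in frontal cortex, and 0%, 0% and 0.192% in hypothalamus (34 of 17676 at 120 min). At an unadjusted p under 0.05 edgeR gave 1 member in amygdala at 30 min (Htr7), 1 in frontal cortex at 30 min (Htr4) and 0 in each of the other 7 comparisons. The share of all genes at that level was 2.74%, 7.13% and 15.1% in amygdala at the 3 times, 6.28%, 2.54% and 5.34% in frontal cortex and 1.92%, 2.22% and 11.5% in hypothalamus. Averaged over the times, 0 members were called in any region, with Htr7 in amygdala and Htr4 in frontal cortex again the only ones at an unadjusted p under 0.05 (for all genes the share was 2.95% in hypothalamus, 4.35% in amygdala and 3.97% in frontal cortex). The intruder effect differed between times for 0 of 10 members in each region, and between regions for 0 of 10 at each time, with none at an unadjusted p under 0.05 in either test. At that level were 12.1%, 4.45% and 5.67% of all genes for the difference between times in amygdala, frontal cortex and hypothalamus, and 3.51%, 4.11% and 7.99% for the difference between regions at 30, 60 and 120 min. Of all genes, 2 of 17676 (0.0113%) were called for the difference between times in hypothalamus and none in the other regions, and 3 of 18337 genes (0.0164%) were called for the difference between regions at 120 min. Control and intruder libraries overlapped in CPM for 10 of 10 members in all 9 comparisons, where the share of all genes that did not overlap at 30, 60 and 120 min was 0.776%, 0.376% and 3.13% in amygdala, 1.03%, 0.369% and 0.246% in frontal cortex and 3.22%, 0.458% and 1.3% in hypothalamus.

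**Figure D2:**
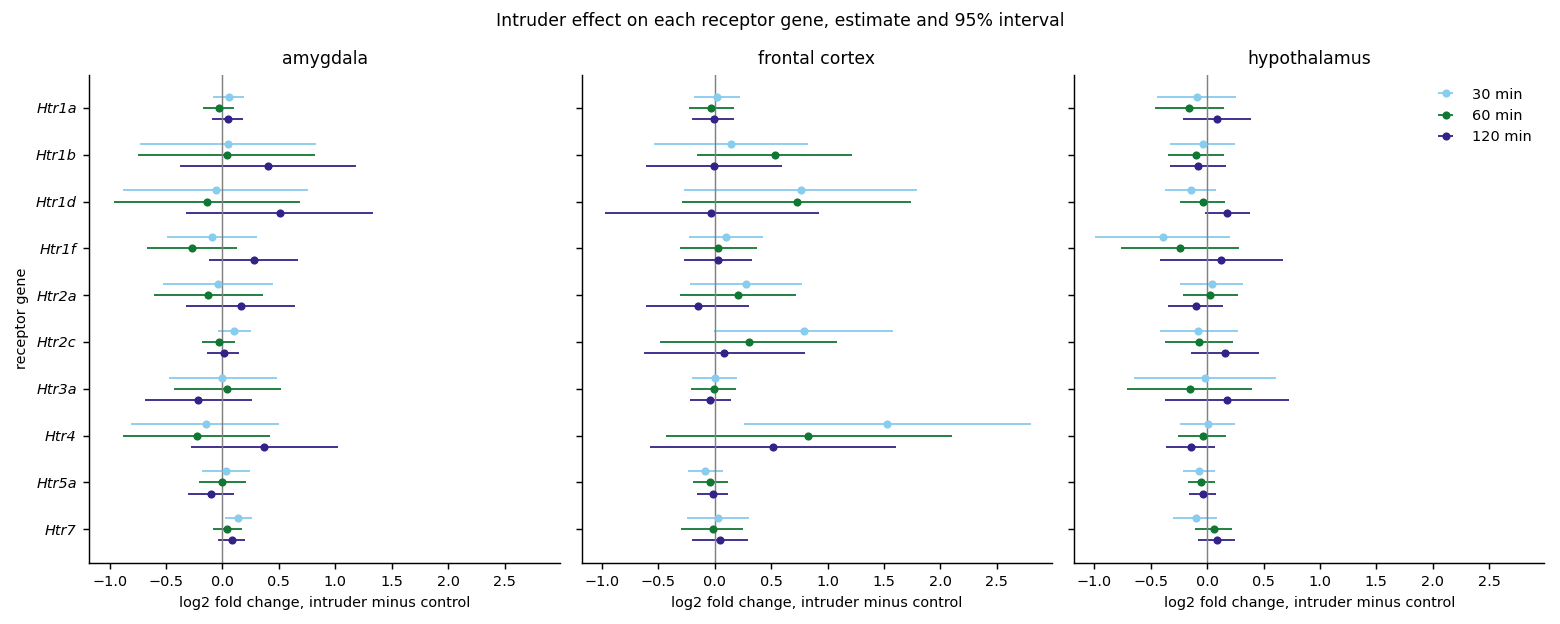
Log2 fold change, intruder minus control, of the 10 receptor genes at 30, 60 and 120 min in each region; points are edgeR estimates and lines are 95% intervals. Intervals are short for Htr5a and Htr7 and long for Htr4 and Htr1d in frontal cortex, and only Htr4 in frontal cortex and Htr7 in amygdala, both at 30 min, have intervals that leave out 0.

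The intervals say how large an effect these groups leave room for. For Htr5a the 9 intervals lay between -0.31 and 0.24 log2, for Htr7 between -0.30 and 0.30, and for Htr1a between -0.46 and 0.39. Those of Htr1d reached from -0.97 to 1.79 and those of Htr4 from -0.88 to 2.80. In hypothalamus they were narrow, from -0.37 to 0.38 for Htr1d and from -0.36 to 0.25 for Htr4, and the wide ones were those of amygdala and frontal cortex. Htr7 in amygdala at 30 min had 18.6, 16.8, 20, 20 and 17.7 CPM in the control libraries and 20.7, 19.9, 21.3, 19.9 and 20.6 CPM in the intruder libraries. The intruder libraries were the tighter group and overlapped the upper controls. The log2 difference was 0.14 (95% interval 0.02 to 0.26), and the adjusted p of edgeR over all genes was 1.

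Htr4 in frontal cortex had the largest intruder estimate, with 2 libraries standing apart. At 30 min the controls held 0.807, 0.468, 0.727, 0.502 and 1.33 CPM, and the intruder libraries 3.18, 5.81, 0.438, 0.992 and 0.621 CPM. Intruder replicates 1 and 2 were above all controls, 2 of the other 3 were inside the control range, and replicate 3 was just below it. The log2 difference was 1.53 (95% interval 0.26 to 2.80, edgeR adjusted p = 0.771), and it was 0.78 without intruder replicate 2. These 2 libraries carried another first sequencing index than the other 8, and with the index as a block the estimate was -0.15 (adjusted p = 0.983). Their striatal marker scores were 5.86 and 7.05, against 4.05, 4.92 and 5.76 in the other intruder libraries and 4.36 to 5.78 in controls; the part of either in the Htr4 values was not tested. Htr2c at 30 min in frontal cortex had 24.9, 24, 21.7, 10.04 and 30.9 CPM in controls and 39.8, 58.1, 10.3, 48.8 and 35.3 CPM in intruder libraries, a log2 difference of 0.79 (95% interval -0.01 to 1.58, edgeR adjusted p = 0.771). The score of cortical excitatory neurons was 6.86, 6.58, 7.05, 6.73 and 6.82 in these intruder libraries and 6.87 to 7.07 in controls, highest among intruder libraries in the one with the least Htr2c; its part in the Htr2c values was not tested.

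Over time after the cage a few members were called, mainly in frontal cortex, in shares below those of all genes, so that a call by itself says little about the receptors here. In frontal cortex controls Htr2a was called over the 3 times (edgeR F test, adjusted p = 0.00986), 1 of 10 members beside 33.4% of all genes. Its libraries held 18.5, 18, 15.2, 18.5 and 15.7 CPM at 30 min and 11.4, 12.6, 12.1, 9.03 and 8.79 CPM at 60 min. At 120 min they held a lowest, median and highest of 17.4, 20.1 and 24.8 CPM. The 60 min controls lay below every control of the other times. Htr2a fell by 0.68 on the log2 scale from 30 to 60 min (SE 0.248, adjusted p = 0.0332; 35.4% of all genes called for that step) and rose by 0.94 from 60 to 120 min (SE 0.24, adjusted p = 0.0132). In the intruder animals of frontal cortex, 3 of 10 members were called over the times, Htr1f (adjusted p = 0.0249), Htr7 (0.0255) and Htr2a (0.0331), beside 46.1% of all genes. Htr2a there held 29.9, 21.1, 21.8, 12.8 and 18.4 CPM at 30 min and 24.7, 11.5, 13.6, 5.39 and 7.07 CPM at 60 min, so intruder replicate 1 did not share the low level. Its mean at 120 min was 18.5 ± 3.24 CPM (SD, n = 6). Htr1f fell by 0.52 on the log2 scale from 30 to 60 min in intruder animals (adjusted p = 0.00941; 45.5% of all genes called) and by 0.46 in controls (adjusted p = 0.0301). Marker scores separated the same groups: from 30 to 60 min the oligodendrocyte score went from 7.96 to 8.31 up to 8.53 to 9.06 in controls and from 7.64 to 8.38 up to 8.43 to 9.02 in intruder animals. The blood score went from 3.38 to 3.93 up to 4.09 to 4.36 and from 3.22 to 3.89 up to 3.92 to 4.57. Reads outside features went from 10.99% to 12.7% down to 8.99% to 9.71% in controls and from 11.4% to 13.19% down to 8.63% to 10.29% in intruder animals; the part of any of these in the receptor levels was not tested. Htr7 fell by 0.35 on the log2 scale from 30 to 60 min in intruder animals (adjusted p = 0.0333) and rose by 0.40 from 60 to 120 min (adjusted p = 0.0256). At 120 min intruder replicate 1 stood apart, with 16.3 CPM of Htr7 against 10.4 to 11.9 in the others of its group. Its hypothalamic score was 0.98 against -0.45 to -0.29, and the part of that score in the rise was not tested. From 60 to 120 min Htr2a was the only member called in controls (15.9% of all genes), and Htr5a and Htr7 were the members called in intruder animals (22.9%).

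**Figure D3:**
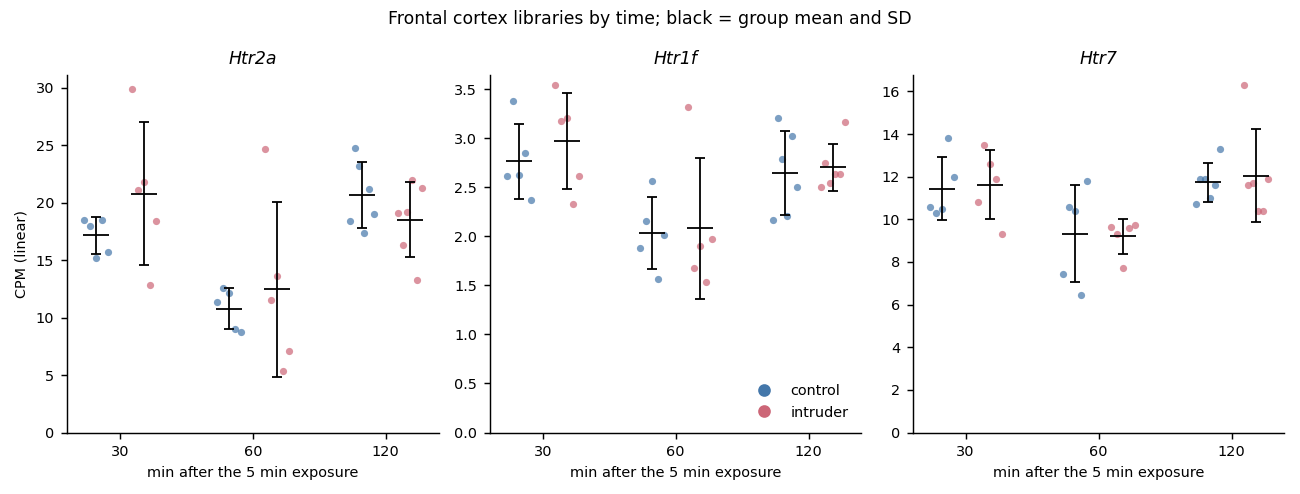
CPM on a linear axis of Htr2a, Htr1f and Htr7 in frontal cortex libraries at 30, 60 and 120 min after the exposure; points are libraries, colours are conditions and black marks are group means with SD. The 60 min controls of Htr2a, 8.79 to 12.6 CPM, lie below all controls of 30 and 120 min, and 1 intruder library at 60 min stands at 24.7 CPM.

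The time comparisons carry limits of their own. In frontal cortex 0 library indexes were shared between times within either condition, and the comparisons over the 3 times could not be fitted with the index as a block. The step from 60 to 120 min in intruder animals could, through the 60 min controls: edgeR then called 0 of 10 members and 0 genes, with 3 members at an unadjusted p under 0.05 beside 27.2% of all genes. These were Htr2a (1.02 log2, 95% interval 0.16 to 1.89), Htr1f (0.69, 0.11 to 1.27) and Htr5a (0.31, 0.04 to 0.58), with adjusted p of 0.122, 0.117 and 0.13, while the interval of Htr7 (0.46, -0.03 to 0.96, adjusted p = 0.211) held 0. For the other steps in frontal cortex time and index cannot be told apart. The column headers carry 1 word for all 28 libraries of 30 min and another for all 62 of 60 and 120 min, which moves with the step from 30 to 60 min but not with that from 60 to 120 min. The calls in frontal cortex intruder animals also depended on single libraries. Htr2a was no longer called without intruder replicate 1 at 30 min (adjusted p = 0.0729) or replicates 2, 4 or 5 at 60 min (0.0737, 0.126 and 0.121). Htr1f was lost without intruder replicate 1 at 30 min (0.0562) or replicates 2, 3, 4 or 5 at 60 min (0.0853, 0.0587, 0.105 and 0.0577), and Htr7 without intruder replicate 3 at 60 min (0.0854). The Htr2a call in controls stood in all 32 such fits (adjusted p up to 0.0374).

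Outside frontal cortex, 1 member was called over time, a share below that of all genes (12.9%). Htr7 in the amygdala of intruder animals (adjusted p = 0.0407) was this member, with 20.7, 19.9, 21.3, 19.9 and 20.6 CPM at 30 min, 17.4, 16.2, 18.2, 19.0 and 18.5 CPM at 60 min and 18.9, 21.0, 20.1, 19.4 and 21.1 CPM at 120 min. The 30 min libraries were all above the 60 min libraries, a step of -0.20 log2 (SE 0.059, adjusted p = 0.0377; 7.41% of all genes called). The hypothalamic marker score separated the same groups, 1.01 to 1.58 at 30 min against 0.46 to 0.85 at 60 min, and its part in the Htr7 step was not tested. The call was lost without intruder replicates 1, 3 or 5 at 30 min (adjusted p = 0.0732, 0.0733 and 0.0637), 1 or 2 at 60 min (0.0914 and 0.122) and 2 or 6 at 120 min (0.0504 and 0.0559). It was also lost with the index as a block (0.576) and with no filter (0.0714). In amygdala controls 0 members were called over time (0.232% of all genes), with 0 at an unadjusted p under 0.05 in edgeR (10.9% of all genes), and 0 by DESeq2 and limma voom. In hypothalamus 0 were called in controls (0.181%; 1 at an unadjusted p under 0.05, beside 9.88% of all genes) and in intruder animals (1.49%; 0 at that level, beside 14.4%), again 0 by DESeq2 and limma voom.

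Several members moved with the level of tissue markers in a dissection. The score of a marker list is the mean of log2(CPM + 0.5) over its genes, and each relation was taken across the libraries of a region after removing the group means, with a two-sided permutation test within groups. Among 30 relations of a member with a list, 12 passed an adjusted p of 0.05, 10 of them positive. The pairs were chosen from anatomy, but with earlier results of these data known. The share of all genes that pass with these scores was not taken, so the count by itself says little about the receptors. In amygdala the striatal score ran with Htr1d (Pearson r = 0.98, Spearman rho = 0.96), Htr1b (0.91 and 0.86) and Htr4 (0.72 and 0.65), over 30 libraries; the permutation p was 1e-05 for Htr1d and Htr1b, the smallest these permutations can give, and 4e-05 for Htr4 (adjusted 0.0001, 0.0001 and 0.0002). Without the 2 libraries farthest from the median score, r was 0.97, 0.88 and 0.57. In frontal cortex, over 32 libraries, r was 0.83 for Htr1d, 0.78 for Htr4 and 0.73 for Htr1b (rho 0.81, 0.78 and 0.75; adjusted permutation p = 0.0001, 0.0002 and 0.000262), and 0.82, 0.75 and 0.78 without the 2 farthest libraries. In hypothalamus, where the striatal score spanned only 4.15 to 5.24, r was 0.20, 0.18 and 0.16 and none passed. The library with the highest striatal score of all, 8.45 in the amygdala of 60 min control replicate 6, also held the highest Htr1b (13.6 CPM), Htr1d (12.7 CPM) and Htr4 (20.1 CPM) of the series.

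**Figure D4:**
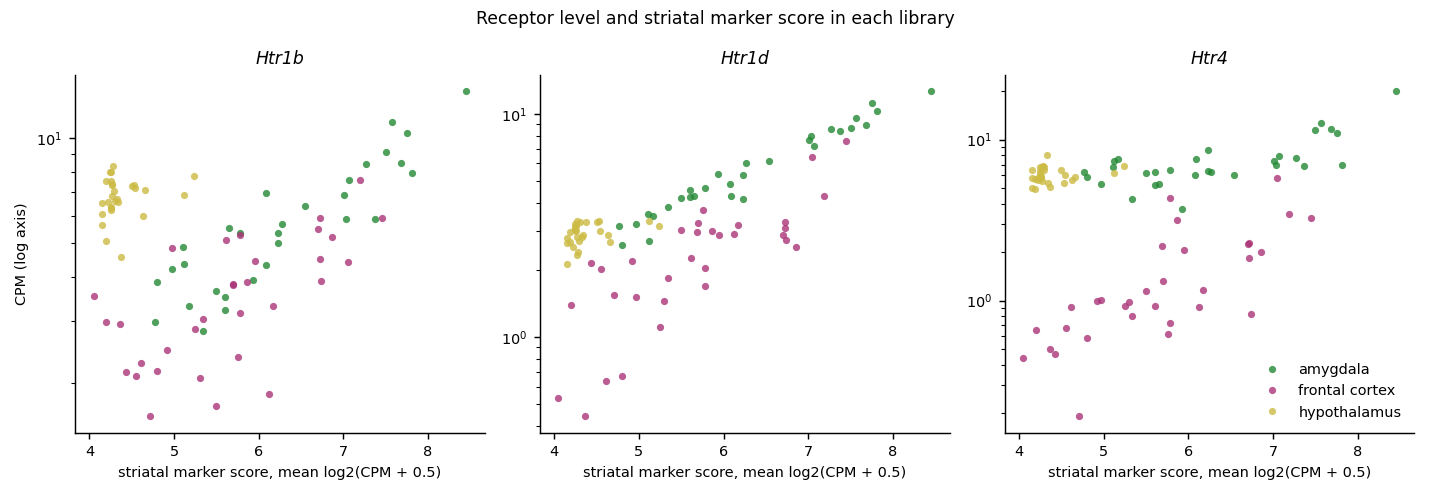
CPM on a log axis of Htr1b, Htr1d and Htr4 against the striatal marker score, the mean log2(CPM + 0.5) of 8 genes, in each of the 90 libraries; colours are regions. Amygdala and frontal cortex points climb with the score, with r = 0.98 for Htr1d in amygdala after removal of group means, and hypothalamus points sit at scores of 4.15 to 5.24.

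Other relations with anatomy were found for Htr5a, Htr2a, Htr1f, Htr1a and Htr7. Htr5a rose and fell with the score of cortical excitatory neurons in amygdala (r = 0.76, rho = 0.70, adjusted permutation p = 0.000262; 0.64 without 2 libraries) and in frontal cortex (r = 0.61, rho = 0.63, adjusted permutation p = 0.00417; 0.56 without 2). In amygdala, Htr2a and Htr1f ran against the claustrum score (r = -0.74 and -0.55, rho = -0.75 and -0.61, adjusted permutation p = 0.0002 and 0.00976; -0.68 and -0.50 without 2). These relations are not tied to 1 tissue each: in amygdala Htr2a and Htr1f also ran with the striatal score (r = 0.80 and 0.64) and the thalamic score (0.72 and 0.55), and Htr1b, Htr1d, Htr2a and Htr4 with that of oligodendrocytes (0.69, 0.87, 0.54 and 0.45), all past the threshold over 360 relations. Likewise Htr1b, Htr1d and Htr4 ran in amygdala with the thalamic score (0.83, 0.95 and 0.66) and against the cortical score (-0.85, -0.82 and -0.86). In frontal cortex they ran against the cortical score (-0.54, -0.79 and -0.79), and Htr1d and Htr4 with the thalamic one (0.52 and 0.72), again past that threshold. In hypothalamus, Htr1a ran with the hippocampal score (r = 0.58, rho = 0.65, adjusted permutation p = 0.00263; 0.61 without 2) and Htr7 with the thalamic score (r = 0.65, rho = 0.57, adjusted permutation p = 0.0287; 0.43 without 2). Adjusted over all 360 relations, that of Htr7 no longer passed (permutation p = 0.0524), and with the thalamic score in hypothalamus Htr2c was the member that did (r = 0.65, adjusted permutation p = 0.00928). The hippocampal score spanned only 1.03 to 1.37 in hypothalamus. Over the 360 relations Htr1a there also ran with the amygdala and raphe scores and against the hypothalamic score. Htr2c is the receptor of choroid plexus epithelium, yet it did not pass with the choroid plexus score in any region (r = -0.18, 0.03 and 0.15 in amygdala, frontal cortex and hypothalamus). The choroid score itself varied greatly in amygdala, with Ttr, its secreted transthyretin, between 0.406 and 1649 CPM. Htr3a did not pass with the score of interneurons from the caudal ganglionic eminence (r = -0.20, 0.09 and 0.44). The part of dissection in any of these levels was not tested.

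**Figure D5:**
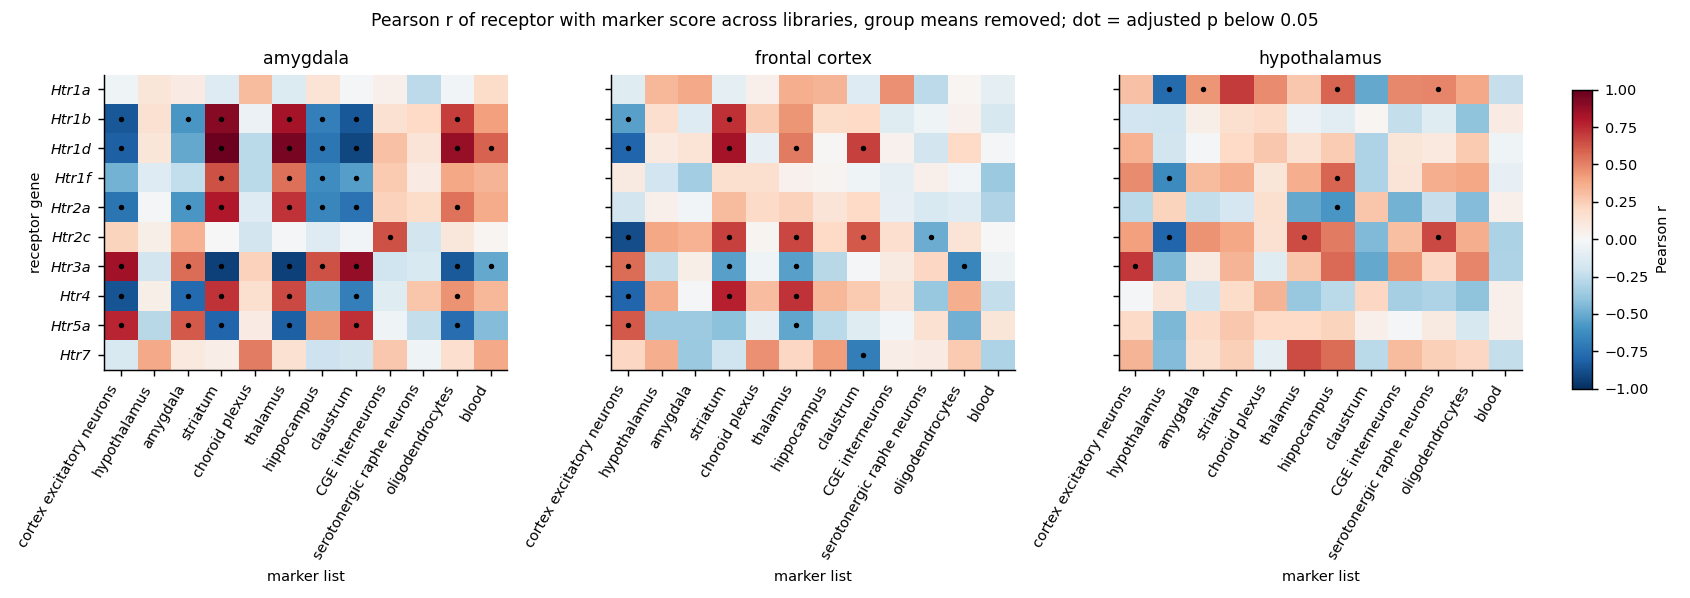
Pearson r, group means removed, of each of the 10 receptor genes with each of 12 marker lists in each region; colour gives r from -1 to 1 and a dot marks an adjusted permutation p below 0.05 over all 360 relations. In amygdala the columns for striatum and thalamus are alike and opposite to those for cortex and claustrum, and 78 of the 360 relations are past the threshold, 41 positive and 37 negative. The share of all genes past it was not taken.

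The rest of the serotonin pathway was read from 4 lists of 41 genes. Of 4 other receptors, Htr2b reached at most 0.208 CPM in any library. Htr3b, the partner subunit of Htr3a, was found mainly in hypothalamus (0.490 CPM against 0.0233 in amygdala), and Htr6, a Gs-coupled receptor, was lower there (1.73 CPM against 4.14 in frontal cortex and 3.41 in amygdala). Of 8 genes of synthesis, transport and breakdown, 7 were called between frontal cortex and hypothalamus, 2 higher and 5 lower in cortex, where 87.5% of all genes were called; the counts of the next lists in the same comparison lie near that share too. Ddc, which forms serotonin and dopamine, had 48.1 ± 7.55 CPM in hypothalamus (SD, n = 28) against 10.9 in amygdala and 5.05 in frontal cortex, and the vesicular transporter Slc18a2 had 37.3, 1.97 and 0.422 CPM. Both also serve dopamine and other monoamine neurons. Tph2, the enzyme specific to serotonin neurons, was at 1.58 CPM in frontal cortex and under 1 CPM in the other regions at the mean. Of 20 G proteins and effectors, 18 were called between frontal cortex and hypothalamus, 13 of them higher in cortex, among them the adenylyl cyclase Adcy1 (3.45 log2), the phospholipase Plcb1 (1.8) and Rgs4 (2.16), which ends G protein signals; the channel subunit Kcnj5 was lower (-4.85). Of 9 receptor partners and regulators, 8 were called, 4 in each direction; S100a10, the p11 protein that binds Htr1b and Htr4, was higher in frontal cortex than in hypothalamus by 0.72.

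A single gene of the same lists was called between intruder and control animals, in hypothalamus at 120 min, where 0.192% of all genes were called (34 of 17676). Cav1, which encodes caveolin-1, a membrane scaffold reported to bind Htr2a, was lower in hypothalamus at 120 min after the intruder, 9.19 ± 0.761 CPM against 12.98 ± 1.38 CPM (SD, n = 5 each), a log2 difference of -0.50 (SE 0.076, edgeR adjusted p = 0.00177). The groups did not overlap, where 1.3% of all genes did not. The score of 5 blood markers, haemoglobins and Alas2, was also lower in these intruder libraries, 3.13 to 3.64 (median 3.31) against 3.52 to 4.27 (median 3.85) in controls; its part in the Cav1 values was not tested. No other tested gene of the 4 lists was called at any time in any region with edgeR. The difference of the Cav1 effect between regions was not called (adjusted p = 0.409). Over time in frontal cortex, 9 of the 20 G proteins and effectors were called in controls and 10 in intruder animals, beside 33.4% and 46.1% of all genes.

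The genes most like each member across the 18 group means of log2(CPM + 0.5) were found among 13988 genes with a mean of at least 1 CPM. They were C530008M17Rik for Htr7 (r = 0.996), Irgq for Htr5a (0.995), Klhdc1 for Htr3a (0.990), Nos1 for Htr2c (0.990), Robo2 for Htr1f (0.990), Npy2r for Htr4 (0.989), Gnaq for Htr2a (0.976), Pitpnc1 for Htr1b (0.975), Robo1 for Htr1a (0.963) and Gpr83 for Htr1d (0.962). Since the 18 means fall into 3 regions, high values mainly restate the order of the regions. Among the members themselves, Htr2c and Htr4 were closest (r = 0.97), and Htr5a and Htr7 were most opposed (r = -0.95).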

How the data were processed

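Poly(A) RNA was sequenced from dissected mouse brain regions, 90 libraries in 18 groups. The table deposited by the authors holds raw counts of reads for each gene in each library. Per the submitters' processing notes, CASAVA 1.8.2, TopHat2 2.0.8, HTSeq 0.6.1, edgeR 3.2.4, R 3.0.0 and build NCBIM37 were used, with no role given; the strand setting of the counting is not given in the sources used here. The 5 rows that name no gene were left out: 8.63% to 14.5% of a library's reads had no feature, 0.634% to 0.761% were ambiguous and 9.79% to 11.5% were without a unique alignment. Each of the 90 columns was matched to its sample by its label, and 32919 identifiers had a symbol in Gencode M21.

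Each region was fitted with edgeR 4.0.16 under R 4.3.3 (filterByExpr, TMM, quasi-likelihood F test, 6 groups sharing 1 estimate of the spread), and all regions together with the animal as block. Tests are two-sided, and a call is a Benjamini-Hochberg adjusted p below 0.05 over all genes tested. Other tools were DESeq2 1.42.0 and voom of limma 3.58.1. Marker relations used log2(CPM + 0.5) and 100000 permutations within groups, with scipy 1.17.1. Exon lengths came from Gencode M21, another build than the authors', so RPKM is approximate. The scripts were tested on simulated data. No pair of 183 pairs of libraries within a group was alike to sampling noise (chi-square per degree of freedom at least 4.09). Reads carry no molecular identifiers, so they are not independent molecules. The members and lists were chosen with earlier results of these data known, among them the 4 pathway lists, 12 marker lists and 30 member and list pairs. Named genes are the members, the genes of those lists, and the genes most like each member. One marker gene is not reported here.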

Additional observations from a re-analysis of the deposited data

Results flagged for a closer look

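A single library stood apart from the other libraries of its group (Dixon's test at the 95% level) in 8 of 170 sets of member and group tested; chance alone gives about 1 in 20, so about 8.5. The sets came from 6 libraries. In the amygdala of 60 min control replicate 6, Htr1b was 13.6 CPM against 2.81 to 5.02 in the other 4 libraries, Htr1d 12.7 CPM against 3.82 to 4.58, and Htr4 20.1 CPM against 4.27 to 8.61; the striatal marker score there was 8.45 against 5.34 to 6.23. In the hypothalamus of 60 min control replicate 6, Htr1a was 36.8 CPM against 19.3 to 20.6, with a striatal score of 5.24 against 4.15 to 4.66 and a choroid plexus score of 2.86 against 1.05 to 1.73, a hippocampal score of 1.23 against 1.09 to 1.14 and a hypothalamic score of 5.11 against 5.7 to 6.02. In the hypothalamus of 120 min intruder replicate 4, Htr1d was lowest at 2.34 CPM against 3.05 to 3.27. In frontal cortex at 60 min, intruder replicate 1 had the highest Htr1f, 3.32 CPM against 1.53 to 1.97, with a choroid plexus score of 2.27 against 0.47 to 0.90. Intruder replicate 3 had the lowest Htr7, 7.73 CPM against 9.3 to 9.72, with a striatal score of 7.45 against 4.55 to 7.19. In frontal cortex at 120 min, intruder replicate 1 had the highest Htr7, 16.3 CPM against 10.4 to 11.9, with a choroid plexus score of 2.74 against 0.32 to 1.34, a hypothalamic score of 0.98 against -0.45 to -0.29, a thalamic score of 3.57 against 2.23 to 2.47 and a hippocampal score of 1.85 against 0.86 to 1.11. The part of these marker scores in the values was not tested.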

How the results depend on the processing

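The counts of 0 members called for the intruder, at each time, over the mean of times, between times and between regions, were 0 under every alternative run for them: other scalings, no filter, DESeq2, limma voom, the library index as a block where it could be fitted, the 2 groups alone and leave-one-out (0 to 0 members in each). For the difference between regions only 1 library was left out, amygdala 60 min control replicate 6. The replicate numbers did not pair the samples (correlations of same-numbered libraries from -0.62 to 0.66, with every pair above 0.1 in 0 of 9 sets), and the fit with a replicate block also called 0 members. The index block could not be fitted in frontal cortex at 120 min, over its mean of times, for its comparisons over the 3 times or the difference between times, nor for those over the 3 times of hypothalamus. In frontal cortex at 120 min all controls shared a first index and all intruder libraries another, so the intruder and the index cannot be told apart there. In the Htr4 estimate of frontal cortex at 30 min the index block turned the sign, to -0.15. Over time in the amygdala of intruder animals, 1 member called became 0 with no filter, 0 with the index block and 2 with DESeq2, and 0 to 2 in leave-one-out; without intruder replicate 5 at 60 min or 4 at 120 min it was 2. In frontal cortex controls, 1 member called became 3 with limma voom and 2 with DESeq2, and 1 to 3 in leave-one-out: 3 without control replicate 3 at 60 min or 1 at 120 min, and 2 without control replicate 6 or intruder replicate 1 at 60 min or intruder replicate 1 at 120 min. In frontal cortex intruder animals the 3 became 1 to 4; it was 1 without intruder replicate 1 at 30 min or 3, 4 or 5 at 60 min. The cause was not tested. Between regions, single groups of 3 to 6 animals called fewer members in part. For amygdala minus hypothalamus they called 3 in 30 min controls and 5 in 60 min intruder animals, and for frontal cortex minus amygdala 6 in intruder animals at 60 min and 6 at 120 min. Among differences called over all groups, the estimate changed sign within a group for Htr1a, amygdala minus hypothalamus (-0.01 in 30 min and -0.004 in 60 min controls), and for frontal cortex minus amygdala in Htr1f (-0.15 in 60 min controls, -0.01 in 120 min intruder animals) and Htr2a (-0.20 in 60 min controls, -0.05 in 60 min intruder animals); among those not called, it ran from -0.48 to 0.09 for Htr1b, amygdala minus hypothalamus, and from -0.76 to 0.32 for Htr1d, frontal cortex minus hypothalamus. The count of marker relations past the threshold stayed at 12 with a pseudocount of 1 and with DESeq2 size factors.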

Other observations

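All 10 members were also set against all 12 marker lists in each region, a choice made after seeing the data, with p adjusted over 360 relations. In frontal cortex, Htr2c ran against the score of cortical excitatory neurons (r = -0.89, rho = -0.91, adjusted permutation p = 0.000144; -0.88 without the 2 farthest of 32 libraries) and with the scores of striatum (r = 0.68), thalamus (0.67) and claustrum (0.61). In amygdala, Htr3a ran against the striatal score (r = -0.93, rho = -0.91, adjusted permutation p = 0.000144; -0.92 without 2 of 30 libraries) and with the cortical score (r = 0.84) and the claustrum score (0.88). In hypothalamus, Htr2c and Htr1a ran against the score of hypothalamic neuropeptide and transcription factor genes (r = -0.79 and -0.77, rho = -0.75 and -0.82, adjusted permutation p = 0.000562 and 0.000144; -0.78 and -0.76 without 2 of 28 libraries). Within a library, member and marker share its depth, so the points are not free of common scaling.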
